A study of Mus musculus with 12 samples.

Results

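The genes described here encode the aminoacyl-tRNA synthetases of the mouse, 37 genes of the 56748 in the count table. They were chosen by symbol: 1 amino acid letter followed by "ars", with or without 1 or 2, plus Eprs, Farsa and Farsb. The 17 genes with the suffix 2 are mitochondrial forms and the other 20 are cytosolic, of which 8 sit in the multisynthetase complex. All 37 passed the filter on low counts. RNA was sequenced in bulk from CD8+ T cells of 6 T cell receptor transgenic mice, 3 in each of 2 experiments. Whole spleen cells were stimulated with peptide for 24 hours (250 nM SIINFEKL for OT-1 mice, 1 µM gp100 for pmel-1 mice), and IL-2 was in the medium. They were then grown for 6 days with 5 mM dichloroacetate (DCA) or without it, and CD8+ cells were sorted on day 7. DCA blocks the kinases that switch off pyruvate dehydrogenase, and the title of the series speaks of limiting metabolic stress in T cells grown for cancer therapy.

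Each synthetase joins an amino acid to its matching tRNA at the cost of ATP, and this charged tRNA is what the ribosome reads. Most mitochondrial enzymes come from separate nuclear genes, and in mammals several cytosolic enzymes are held in the multisynthetase complex by the scaffold proteins Aimp1, Aimp2 and Eef1e1. When charged tRNA runs short, the kinase GCN2 (gene Eif2ak4) lowers translation and raises the transcription factor ATF4, which is known to act on several cytosolic synthetase genes.

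The 4 groups had 3 libraries each: experiment 1 with DCA, experiment 1 untreated, experiment 2 with DCA and experiment 2 untreated. The strain and genotype labels give experiment 2 as Pmel-1 mice (background B6.Cg-Thy1a/Cy, transgene Tg(TcraTcrb)8Rest/J) and experiment 1 as OT-1 mice (genotype C57BL/6-Tg(TcraTcrb)1100Mjb/J), although the titles call the cells of both experiments Pmel-1. Trbv14 stood at 1679 to 2577 CPM in experiment 2 and at 0 in experiment 1, and Trbv12-1 at 0.0588 to 0.493 CPM in experiment 2 and at 202 to 236 CPM in experiment 1. CPM here is the count relative to library size after TMM, a scaling factor for each library. The labels name 2 technical batches of cDNA, so strain, peptide, batch and experiment cannot be told apart. No age or sex of the mice is used here. Libraries held 28039700 to 41051100 counts (rounded to 6 digits). CD8 T cell markers summed to 3181 to 3569 CPM with DCA and 3014 to 3479 CPM untreated in experiment 1. In experiment 2 they summed to 2897 to 3107 CPM with DCA and 3373 to 3782 CPM untreated, with no overlap, and Cd4 reached at most 0.701 CPM in any library. The B cell genes Ms4a1, Pax5 and Cd79a stayed at or below 0.311 CPM in all libraries, while Ighm stood at 267 to 467 CPM. Cd79b was higher with DCA in 6 of 6 mice, at 29.1 to 41.9 CPM with DCA and 15.0 to 22.2 CPM untreated in experiment 1, and at 28.1 to 33.3 CPM with DCA and 21.1 to 23.9 CPM untreated in experiment 2. Trdc, a gamma delta T cell gene, was lower with DCA in 6 of 6 mice, at 61.1 to 77.3 CPM with DCA and 75.9 to 98.7 CPM untreated in experiment 1, and at 37.0 to 44.6 CPM with DCA and 60.1 to 71.2 CPM untreated in experiment 2. Trgc1, the other gamma delta gene listed, was lower with DCA in 3 of 3 mice of experiment 1. In experiment 2 Trgc1 went the other way, with every DCA library above every untreated one. Myeloid markers summed to 12.1 to 33.3 CPM with DCA and 9.36 to 13.3 CPM untreated in experiment 1, and to 14.0 to 16.8 CPM with DCA and 7.18 to 15.2 CPM untreated in experiment 2, with Lyz2 at or below 0.382 CPM. The NK list summed to 35.8 to 41.0 CPM with DCA and 45.3 to 72.3 CPM untreated in experiment 1, and to 2.39 to 5.00 CPM with DCA and 5.92 to 7.18 CPM untreated in experiment 2. Most of that sum was Eomes, which was lower with DCA in 6 of 6 mice, while Klrb1c and Ncr1 were each lower in 2 of 6. The part of these markers in the results was not tested.

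After TMM scaling, the transcripts of most cytosolic synthetases were lower with DCA over both experiments. Fewer were called with library totals or cyclic loess, as given below. Over both experiments 14 of the 20 cytosolic genes fell and none rose, with a median log2 fold change of -0.27 against -0.02 for all tested genes. Among the 17 mitochondrial genes Sars2 fell, Wars2 rose and 15 passed no threshold, with a median of -0.08. In all, 16 of 37 genes passed an adjusted p of 0.05 in edgeR's quasi-likelihood test, 15 lower and 1 higher. Of all 15688 tested genes 16.8% passed, 9.80% lower and 7.01% higher. The falls spread over both cytosolic groups, 5 of the 8 enzymes of the complex and 9 of the 12 others. In bulk RNA, fewer cells of a type and less RNA per cell cannot be told apart.

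The standard error (SE) of the log2 fold change had a median of 0.13 for the mitochondrial genes and 0.08 for the cytosolic genes. The TMM factor itself moved with the treatment, at 0.910 to 0.934 with DCA and 0.818 to 0.845 untreated in experiment 1, and at 1.15 to 1.17 with DCA and 1.12 to 1.13 untreated in experiment 2. With library totals in place of TMM, chosen after seeing the data, 8 genes fell and Wars2 rose, and the cytosolic median was -0.18 against 0.08 for all genes. Cyclic loess scaling, which removes trends with expression level, left 5 falls (Kars, Farsa, Farsb, Wars and Sars2) and a cytosolic median of -0.15 against -0.03 for all genes. Cyclic loess ended the calls of Eprs, Mars1, Rars, Lars, Gars, Hars, Nars, Sars, Tars, Yars and Wars2, with adjusted p-values from 0.0513 (Eprs) to 0.469 (Nars). Library totals ended those of Lars, Gars, Hars, Nars, Sars, Yars and Sars2. Limma-voom ended the call of Sars2 (adjusted p = 0.0887), no filter on low counts that of Sars (0.0577), and a filter of 5 CPM in 3 libraries that of Nars (0.0509). Kars, Farsa, Farsb and Wars were called under all 8 other settings run over both experiments. How many of all genes were called under each of these settings is not given here. Of the 20 cytosolic genes 19 had a log2 fold change below 0 under TMM and RLE scaling and 18 under cyclic loess, where Dars changed sign.

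**Figure D1:**
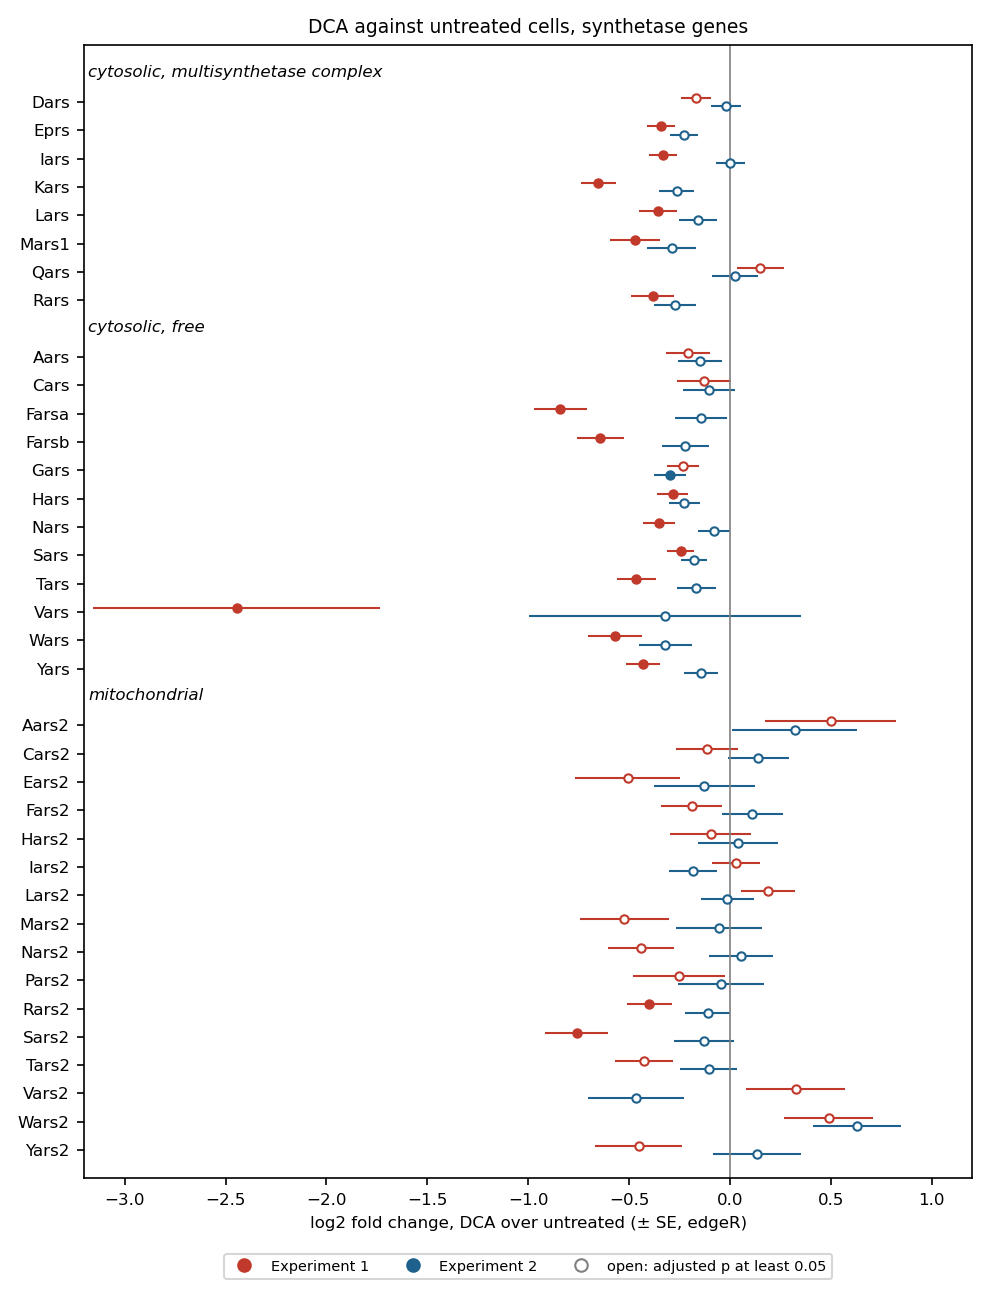
Log2 fold changes of DCA over untreated cells for 36 of the 37 synthetase genes, by experiment (points, with SE from edgeR as bars); filled points passed an adjusted p of 0.05 and open ones did not. Filled points are 17 in experiment 1 and 1 in experiment 2 (Gars), and Vars in experiment 1 stands apart at -2.45 with an SE of 0.71.

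Promoter sequences are shown for members that fell, because a group of genes that move together raises the question of which short sequences they have in common. The windows, from RefSeq on build GRCm38.p6, run from 250 bases before the gene start to 50 after it, and 27 of the 37 members had one. Among those without one were Cars, Hars, Hars2, Lars, Nars, Pars2, Rars, Vars and Wars. A set of 3 elements was searched on both strands: TGATGNAA, the core of elements bound by ATF4 with C/EBP partners, the E-box CACGTG bound by MYC and related factors, and the element of nuclear respiratory factor NRF1 (GCGCA and GCGC with any 1 base between them). TGATGNAA was in 5 of 27 members (Aars, Gars, Iars, Tars and Yars; 3.97% of all 32851 windows). CACGTG was in 5 (Aars, Ears2, Farsb, Iars and Tars; 7.15% of all windows), and the NRF1 element was in 5 (Farsb, Iars2, Kars, Mars2 and Tars; 4.60% of all windows). The 5 members with TGATGNAA were all cytosolic, 5 of 13 cytosolic and 0 of 14 mitochondrial genes with a window. Aars and Iars, which hold it, were not called over both experiments. Kars, Eprs, Mars1, Farsa, Farsb and Sars fell over both experiments and have a window without it. Of these, Eprs, Mars1, Farsa and Sars have a window with none of the 3 elements. A match is a description of letters, and the motifs do not overlap in the windows shown, though CACGTG and the NRF1 element adjoin in Tars.

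Gars (chr6:55037751-55038050, plus strand), Tars (chr15:11399609-11399908, minus strand) and Yars (chr4:129189653-129189952, plus strand) are the called members with TGATGNAA or its reverse complement, 30 to 23 bases before the start in Gars, 15 to 8 before it in Tars and 3 to 10 after it in Yars. Kars (chr8:112011305-112011604, minus strand) and Farsb (chr1:78488848-78489147, minus strand) are called members with the NRF1 element and without TGATGNAA. These 2 were picked for the size of their falls, not for that element. Farsa fell more over both experiments (-0.49, adjusted p = 0.0181), has none of the 3 elements and is not shown. Each window shown is given in the direction of its gene, with every match to the 3 elements in capitals.
Gars: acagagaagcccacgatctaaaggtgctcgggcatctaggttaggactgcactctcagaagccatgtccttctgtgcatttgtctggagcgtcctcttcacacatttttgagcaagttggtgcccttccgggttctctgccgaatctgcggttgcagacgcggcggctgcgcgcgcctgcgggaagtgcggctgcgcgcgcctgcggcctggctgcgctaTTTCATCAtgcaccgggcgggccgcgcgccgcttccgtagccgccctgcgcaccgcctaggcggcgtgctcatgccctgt
Tars: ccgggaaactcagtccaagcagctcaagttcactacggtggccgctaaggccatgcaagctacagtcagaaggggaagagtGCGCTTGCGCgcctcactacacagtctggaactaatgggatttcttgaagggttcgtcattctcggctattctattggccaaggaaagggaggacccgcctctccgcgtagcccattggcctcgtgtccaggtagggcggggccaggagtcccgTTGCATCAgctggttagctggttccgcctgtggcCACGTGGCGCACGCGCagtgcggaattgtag
Yars: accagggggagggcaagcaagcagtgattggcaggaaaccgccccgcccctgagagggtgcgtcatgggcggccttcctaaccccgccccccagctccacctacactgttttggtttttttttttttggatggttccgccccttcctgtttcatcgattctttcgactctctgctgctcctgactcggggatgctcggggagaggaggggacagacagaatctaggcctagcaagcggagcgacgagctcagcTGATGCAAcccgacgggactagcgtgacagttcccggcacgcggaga
Kars: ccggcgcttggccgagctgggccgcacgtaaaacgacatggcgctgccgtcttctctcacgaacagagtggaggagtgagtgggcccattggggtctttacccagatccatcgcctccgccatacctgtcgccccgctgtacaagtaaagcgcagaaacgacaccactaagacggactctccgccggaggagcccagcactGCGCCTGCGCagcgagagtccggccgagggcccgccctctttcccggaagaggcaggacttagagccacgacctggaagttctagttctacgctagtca
Farsb: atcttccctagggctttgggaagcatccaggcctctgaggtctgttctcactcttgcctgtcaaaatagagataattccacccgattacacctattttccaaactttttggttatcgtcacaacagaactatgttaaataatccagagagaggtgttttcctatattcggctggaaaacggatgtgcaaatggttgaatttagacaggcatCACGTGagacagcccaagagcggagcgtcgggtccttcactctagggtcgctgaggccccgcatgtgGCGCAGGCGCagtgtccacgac

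Of the complex, 5 enzymes fell over both experiments: Kars, Mars1, Rars, Eprs and Lars. Kars, lysyl-tRNA synthetase, which charges lysine in the cytosol and the mitochondria, had 196, 247 and 244 CPM in the DCA libraries of experiment 1, against 374, 379 and 327 CPM in its untreated libraries. The values in experiment 2 were 253, 237 and 248 CPM with DCA and 302, 293 and 292 CPM untreated. The arms did not overlap in either experiment, and the log2 fold change over both was -0.46 ± 0.08 (SE, adjusted p = 0.00171), the smallest adjusted p of the family. Mars1, methionyl-tRNA synthetase, which also charges the initiator tRNA, had 145, 117 and 143 CPM with DCA and 175, 227 and 159.8 CPM untreated in experiment 1. Experiment 2 gave 143, 139 and 139 CPM with DCA and 186, 176 and 152 CPM untreated. Its arms did not overlap in either experiment (-0.38 ± 0.09, adjusted p = 0.00948), and the untreated libraries spread more widely than the treated ones.

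Rars, arginyl-tRNA synthetase, had 217, 283 and 279 CPM with DCA and 345, 322 and 349.6 CPM untreated in experiment 1. In experiment 2 it had 136, 124 and 143 CPM with DCA and 150.3, 184 and 151 CPM untreated. All 6 mice were lower with DCA and the arms of each experiment did not overlap (-0.33 ± 0.08, adjusted p = 0.00858). Eprs, which joins glutamyl- and prolyl-tRNA synthetase in a single protein, had 218, 221 and 237 CPM with DCA and 275, 304 and 279 CPM untreated in experiment 1. For experiment 2 the values were 218, 206 and 215 CPM with DCA and 267, 241 and 239.7 CPM untreated. Again no treated library reached an untreated one of its experiment (-0.29 ± 0.05, adjusted p = 0.00229). Kars, Mars1, Rars and Eprs stayed called over both experiments whichever of the 12 libraries was left out.

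Lars, leucyl-tRNA synthetase, which has also been described as a leucine sensor upstream of mTORC1, was lower with DCA in 6 of 6 mice. It had 91.9, 98.1 and 116 CPM with DCA and 128, 139.7 and 125 CPM untreated in experiment 1, and 125, 111 and 123 CPM with DCA and 131, 142 and 126 CPM untreated in experiment 2. Its arms did not overlap within an experiment (-0.26 ± 0.07, adjusted p = 0.0234). The call was lost without mouse 2 untreated (adjusted p = 0.0574), mouse 1 DCA (0.0508) or mouse 2 DCA (0.0606) of experiment 1 or mouse 2 untreated of experiment 2 (0.0523), and with the mouse as a block (0.0594). Dars, Iars and Qars, for aspartate, isoleucine and glutamine, were not called over both experiments. Iars fell in experiment 1, at 79.7, 79.7 and 75.4 CPM with DCA and 101, 97.2 and 97.7 CPM untreated (-0.33 ± 0.07, adjusted p = 0.00611), while experiment 2 gave 0.00 ± 0.07 (adjusted p = 0.993) and the difference between the effects was not called (0.33 ± 0.10, adjusted p = 0.145). Dars, whose level per kb was the highest of the complex, averaged 547 ± 54.5 CPM with DCA and 615 ± 24.0 CPM untreated in experiment 1 and 537 ± 28.6 CPM with DCA and 545 ± 28.8 CPM untreated in experiment 2 (mean ± SD, n = 3 each). Qars was the only cytosolic gene with a fold change above 0 over both experiments (0.09 ± 0.08, adjusted p = 0.533).

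Among the cytosolic enzymes outside the complex, Wars, Farsa and Farsb had the largest called falls. Farsa and Farsb encode the alpha and beta subunits of phenylalanyl-tRNA synthetase. Farsa had 31.0, 42.1 and 35.2 CPM with DCA and 71.8, 68.8 and 53.4 CPM untreated in experiment 1, and 93.4, 91.6 and 105 CPM with DCA and 108, 115 and 96.5 CPM untreated in experiment 2. Its arms were apart in experiment 1 and overlapped in experiment 2, where mouse 3 had more with DCA (-0.49 ± 0.13 over both, adjusted p = 0.0181). Farsb had 116, 176 and 158 CPM with DCA and 239, 234 and 229 CPM untreated in experiment 1. Libraries of experiment 2 had 158, 160.5 and 168 CPM with DCA and 175, 204 and 188 CPM untreated. Its arms were apart in both experiments (-0.43 ± 0.10, adjusted p = 0.00778); 9.47% of its exon bases are also covered by Sgpp2 on the opposite strand.

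Wars, tryptophanyl-tRNA synthetase, a gene known to be induced by interferon gamma, had 30.5, 42.1 and 46.3 CPM with DCA and 64.3, 61.3 and 50.8 CPM untreated in experiment 1. In experiment 2 it had 107, 117 and 107 CPM with DCA and 142, 145 and 126 CPM untreated. The arms did not overlap in either experiment, and both arms were higher in experiment 2 (-0.44 ± 0.10, adjusted p = 0.00717). Tars, threonyl-tRNA synthetase, had 101, 123 and 135 CPM with DCA and 160.2, 171 and 163 CPM untreated in experiment 1. The values in experiment 2 were 135, 144 and 146 CPM with DCA and 151, 171 and 154 CPM untreated. Its arms were also apart in both (-0.31 ± 0.08, adjusted p = 0.0129), as its lowest untreated library of experiment 2 lay above its highest treated one. Yars, tyrosyl-tRNA synthetase, had 101, 119 and 116 CPM with DCA and 159, 144 and 149.6 CPM untreated in experiment 1, and 142, 135 and 147 CPM with DCA and 163, 164 and 141 CPM untreated in experiment 2. Its arms overlapped in experiment 2 (-0.29 ± 0.07, adjusted p = 0.0132).

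Gars, glycyl-tRNA synthetase, which like Kars serves both compartments, had 154, 170.3 and 193 CPM with DCA and 206, 201 and 201 CPM untreated in experiment 1. Experiment 2 gave 247, 265 and 269 CPM with DCA and 309, 335 and 315 CPM untreated. No arms overlapped (-0.26 ± 0.06, adjusted p = 0.00552). Hars, histidyl-tRNA synthetase, had 69.7, 71.9 and 73.1 CPM with DCA and 88.1, 91.1 and 82.3 CPM untreated in experiment 1. In experiment 2 it had 82.2, 85.0 and 89.0 CPM with DCA and 96.3, 107 and 96.2 CPM untreated. The arms were apart in both (-0.25 ± 0.06, adjusted p = 0.00738); Hars and Hars2 are neighbours on opposite strands whose exons overlap over 7.97% of Hars. Sars, seryl-tRNA synthetase, which also charges the selenocysteine tRNA with serine, had 189.9, 177 and 192 CPM with DCA and 211, 213 and 238 CPM untreated in experiment 1. For experiment 2 the values were 222, 224 and 229 CPM with DCA and 252, 251 and 261 CPM untreated. Its arms did not overlap, and it had the smallest SE of the called genes (-0.21 ± 0.05, adjusted p = 0.00854). Wars, Farsa, Farsb, Tars, Yars, Gars, Hars and Sars all stayed called over both experiments whichever library was left out.

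Nars, asparaginyl-tRNA synthetase, was the member with the highest mean level per kb over the 12 libraries. In experiment 2 alone Dars was higher on average in both arms. Nars had 895, 1071 and 1092 CPM with DCA and 1231, 1339 and 1337 CPM untreated in experiment 1, where the arms were apart. Libraries of experiment 2 had 464, 481 and 531 CPM with DCA and 508, 546 and 503 CPM untreated, where the arms overlapped (-0.22 ± 0.07 over both, adjusted p = 0.0366). The call was lost in 8 of the 12 fits that left out a library, with adjusted p-values up to 0.0806, and with the mouse as a block (0.0546). Those were the fits without any of the 6 libraries of experiment 1, without mouse 2 untreated (0.0631) and without mouse 1 DCA (0.0603) of experiment 2. Aars and Cars, for alanine and cysteine, were not called. Aars had a fold change of -0.18 ± 0.08 (adjusted p = 0.135) and was lower in 6 of 6 mice, and Cars had -0.12 ± 0.09 (adjusted p = 0.449) and was lower in 5 of 6.

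**Figure D2:**
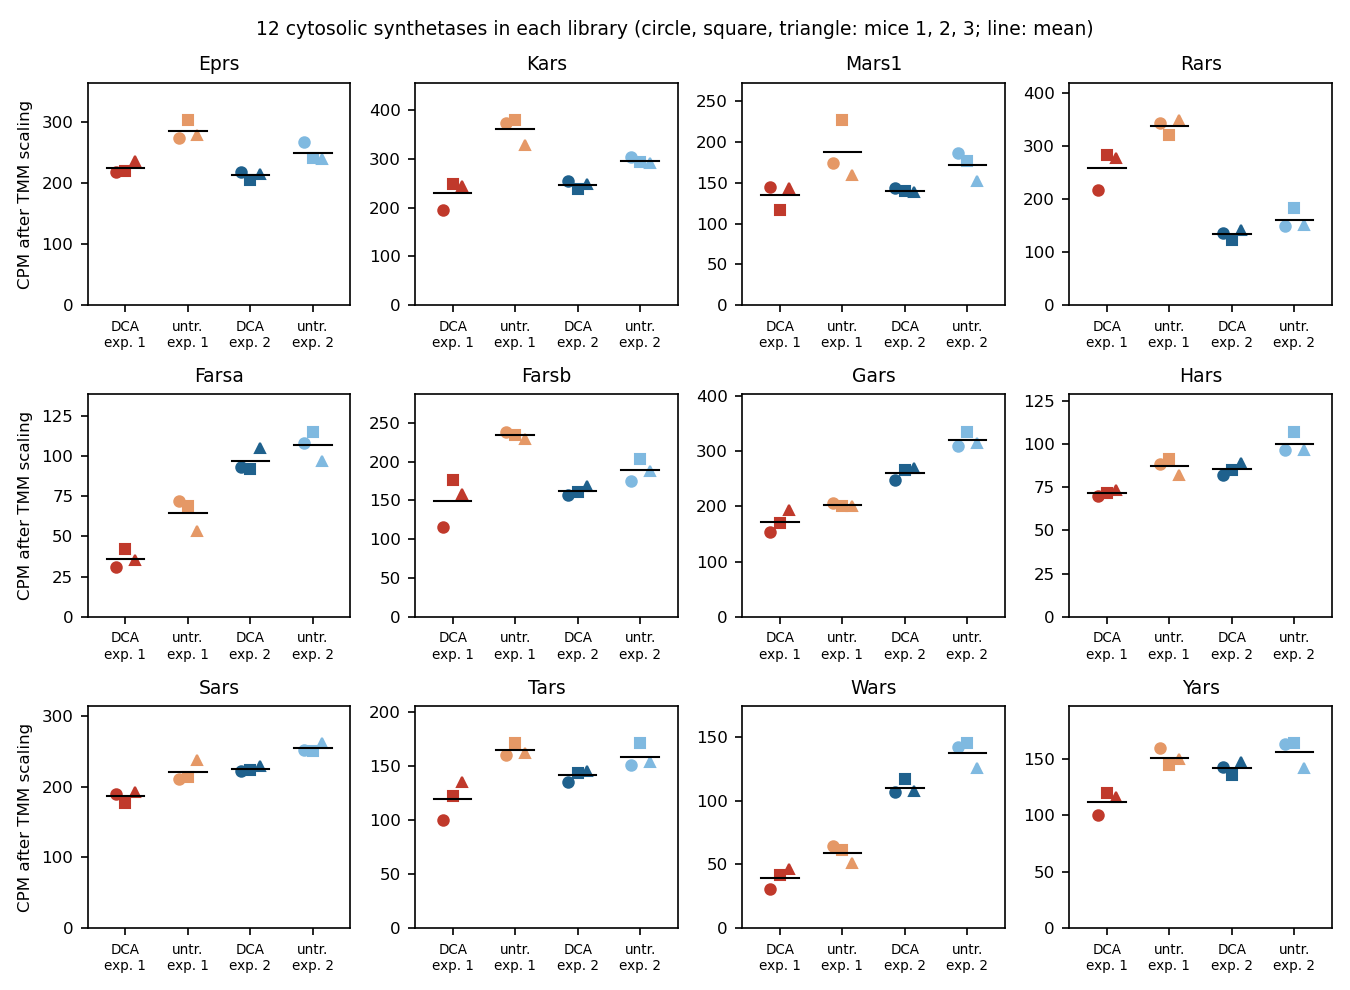
CPM after TMM scaling of the 12 members with the smallest adjusted p over both experiments, in each of the 12 libraries (symbols: mice 1, 2 and 3 of an experiment; line: mean of 3 libraries; axes start at 0). In experiment 1 the DCA libraries lie below all untreated ones in every panel, and in experiment 2 they do so in all panels but Farsa and Yars.

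The fall of Vars, valyl-tRNA synthetase, in experiment 1 rested on a single library. It had 90.4, 67.9 and 105 CPM in the DCA libraries of experiment 1, against 1236, 107 and 89.6 CPM in its untreated libraries. In experiment 2 it had 132, 121 and 106 CPM with DCA and 159.8, 153 and 136 CPM untreated. The untreated library of mouse 1 in experiment 1 was 7.74 times the highest of the other 11. Its 31690 counts for Vars came without a matching rise in the genes beside it: Lsm2 was 1.01, Clic1 0.926 and Msh5 0.588 times the highest other library. Vars was the only 1 of 15688 tested genes with a library at 5 times the next highest or more and that next library at 10 CPM or more. The fold change in experiment 1 was -2.45 ± 0.71 (adjusted p = 0.0297), and without that library it was -0.17 ± 0.16 (adjusted p = 0.561). The call was also lost without any DCA library of experiment 1 or mouse 3 DCA of experiment 2 (adjusted p = 0.0501 to 0.0895), and with limma-voom (0.238), cyclic loess (0.241), a mouse term (0.167) or the 6 libraries alone (0.0968). The cause of the high value was not tested.

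**Figure D3:**
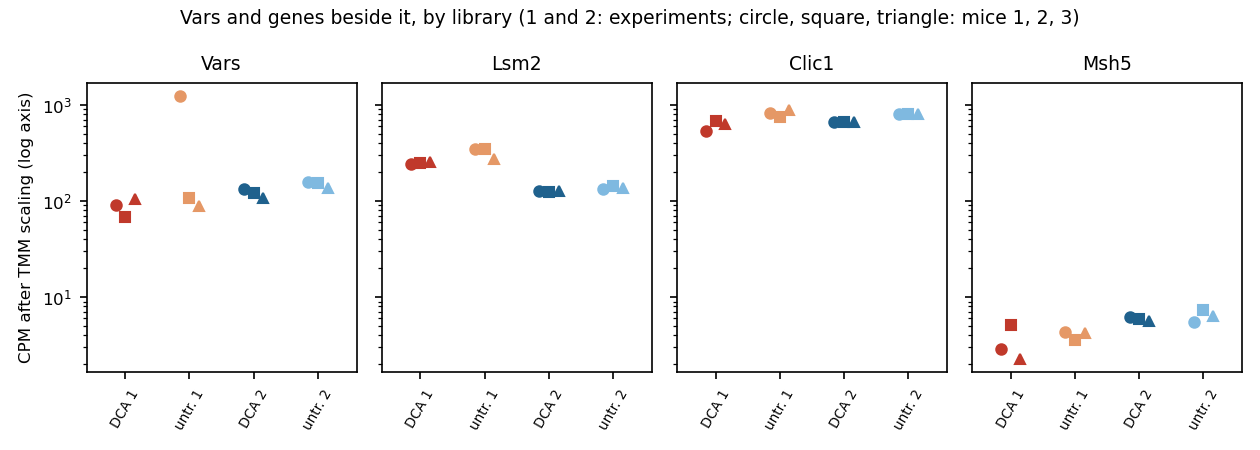
CPM after TMM scaling (log axis) of Vars and of Lsm2, Clic1 and Msh5, which lie beside it, in each library of the 4 groups (symbols: mice 1, 2 and 3). For Vars 1 untreated library of experiment 1 stands at 1236 CPM, above 67.9 to 160 CPM in the other 11, and the other genes show no such library.

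Of the 17 mitochondrial forms, 2 passed the test over both experiments. Wars2, mitochondrial tryptophanyl-tRNA synthetase, was the only member that rose. It had 6.91, 12.1 and 10.5 CPM with DCA and 8.12, 6.77 and 6.14 CPM untreated in experiment 1, and 9.73, 10.3 and 10.4 CPM with DCA and 7.12, 5.18 and 7.32 CPM untreated in experiment 2. The arms overlapped in experiment 1 and were apart in experiment 2, and 5 of 6 mice were higher (0.56 ± 0.15, adjusted p = 0.0204). The call was lost without mouse 2 DCA of experiment 1 (adjusted p = 0.0558), with the mouse as a block (0.0521) and with cyclic loess (0.0551). Sars2, mitochondrial seryl-tRNA synthetase, had 8.44, 8.03 and 6.90 CPM with DCA and 15.3, 13.7 and 10.6 CPM untreated in experiment 1. The values in experiment 2 were 22.7, 26.3 and 28.4 CPM with DCA and 26.5, 28.9 and 29.4 CPM untreated. Its arms were apart in experiment 1 and overlapped in experiment 2 (-0.43 ± 0.13 over both, adjusted p = 0.0384). That call was kept in 5 of the 12 fits that left out a library. It was lost without mice 1 or 2 untreated, any DCA library of experiment 1, mouse 2 untreated or mouse 1 DCA of experiment 2, with adjusted p-values of 0.0556 to 0.0885, and with the mouse term (0.0561).

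Rars2, mitochondrial arginyl-tRNA synthetase, had 120.4, 168 and 147 CPM with DCA and 194, 189.7 and 189.8 CPM untreated in experiment 1, where the arms were apart (-0.40 ± 0.11, adjusted p = 0.023). Experiment 2 gave 50.1, 51.8 and 61.8 CPM with DCA and 56.9, 61.6 and 58.2 CPM untreated, and the arms overlapped. Over both experiments its fold change was -0.26 ± 0.09 (adjusted p = 0.056), and it was called with RLE scaling, limma-voom, DESeq2 and no filter (adjusted p = 0.0180 to 0.0444), without mouse 1 untreated (0.0438) and without mouse 3 DCA (0.0145) of experiment 2. Tars2 and Ears2, for threonine and glutamate, were lower in 6 of 6 mice without passing the test, at -0.26 (adjusted p = 0.117) and -0.31 (adjusted p = 0.278). The other 12 mitochondrial genes, from Aars2 at 0.41 to Mars2 at -0.28, had adjusted p-values of 0.231 and above.

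DCA lowered more of the family in experiment 1 than in experiment 2 at the threshold, but the difference itself was not called for any gene. In experiment 1, 17 of 37 genes fell and 0 rose, 15 cytosolic and 2 mitochondrial. Of all genes 16.7% passed, 11% lower and 5.67% higher. The 15 include Vars, whose call rested on a single library, and with Vars set aside 14 of 19 cytosolic genes fell. The count of 17 became 7 with cyclic loess, 8 with library totals (Vars among them) and 6 when the 6 libraries of experiment 1 were fitted alone. In experiment 2, Gars fell (-0.30 ± 0.08, adjusted p = 0.0442) and no other gene passed, where 4.57% of all genes passed, 2.20% lower and 2.37% higher. The 6 libraries of experiment 2 alone gave 5 calls (Gars, Kars, Mars1 and Wars lower, Wars2 higher), and DESeq2 gave 5. RLE and a filter of 5 CPM in 3 libraries gave 2 each, and cyclic loess and library totals gave 0. The calls among all genes under these other settings are not given here. A change particular to the members cannot be read from these counts. Of the 17 calls in experiment 1, 5 (Kars, Farsa, Farsb, Tars and Yars) were kept under all other settings. Lars, Mars1, Rars, Hars, Nars, Sars, Iars and Rars2 were each lost with cyclic loess, with library totals and with the 6 libraries alone, Eprs with cyclic loess and library totals, and Wars and Sars2 with the 6 libraries alone. Hars and Sars were lost with no filter and with 5 CPM in 3 libraries too. Of the 17, 10 were kept in all 12 fits that left out a library. Mars1 was lost without mouse 2 untreated (adjusted p = 0.0823) or mouse 2 DCA (0.0676) of experiment 1, and Vars as given above. Lars, Rars, Sars and Rars2 were lost in 8 fits each and Hars in 9, with libraries of either experiment left out and adjusted p-values up to 0.107. Hars was also lost with the mouse as a block (0.0521). Gars was not called in experiment 1 (-0.23 ± 0.08, adjusted p = 0.058; 0.0132 without mouse 3 DCA), and its call in experiment 2 was kept in 5 of 12 fits that left out a library. It was lost without mouse 1 or 2 untreated or mouse 2 DCA of experiment 1, and without mouse 2 or 3 untreated or mouse 1 or 2 DCA of experiment 2, with adjusted p-values up to 0.126, and with the mouse as a block (0.0714). Kars was called there without mouse 1 DCA of experiment 1 (0.0403) and Eprs without mouse 3 untreated of experiment 2 (0.0462). The cytosolic medians were -0.36 in experiment 1 and -0.17 in experiment 2, and the mitochondrial ones -0.19 and -0.01. In each experiment more genes had arms that did not overlap: 21 of 37 with DCA below in experiment 1 (18.0% of all genes) and 14 of 37 in experiment 2 (14.6% of all genes). Of these, 16 in experiment 1 and 13 in experiment 2 were cytosolic. DCA libraries lay above all untreated ones for Vars2 and Aars2 in experiment 1 (11.3% of all genes) and for Wars2 in experiment 2 (15.6% of all genes). All 6 mice were lower with DCA for 15 of 37 genes, 12 of them cytosolic (10.8% of all genes), and no member was higher in all 6 (8.31% of all genes).

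For the effect in experiment 2 minus that in experiment 1, 0 of 37 genes passed in edgeR, where 0.331% of all genes did, 0.280% higher and 0.0510% lower. At an unadjusted p under 0.05 there were 11 members, against 2226 of all 15688 tested genes. Limma-voom called 0 members and DESeq2 called 1. That gene was Farsa, which had the smallest adjusted p of the difference in edgeR too (0.70 ± 0.18, adjusted p = 0.106; DESeq2 0.66, adjusted p = 0.0186). Its DCA effect was -0.14 in experiment 2 and -0.84 in experiment 1. The edgeR test called it without mouse 3 untreated (0.82, adjusted p = 0.0332) or mouse 2 DCA (0.83, adjusted p = 0.0488) of experiment 1, and with no filter on low counts (0.71, adjusted p = 0.00241). With no filter Vars passed as well, on the single library described above. The summed level of the cytosolic genes was lower with DCA in every mouse. The 19 cytosolic genes other than Vars summed to 3288, 3779 and 3797 CPM with DCA and 4565, 4758 and 4607 CPM untreated in experiment 1. In experiment 2 they summed to 3377, 3353 and 3548 CPM with DCA and 3807, 3947 and 3739 CPM untreated. The arms did not overlap in either experiment, and the sum was lower in 6 of 6 mice, with differences of -28.0% to -5.09%. Per library total without TMM it was lower in 6 of 6 mice too, with differences of -20.3% to -10.6% in experiment 1 and -10.6% to -2.29% in experiment 2. The mitochondrial sum after TMM was lower in 5 of 6 mice, with differences of -21.9% to 4.72%. Without Lars2 that sum was lower in 5 of 6 mice too (-29.5% to 7.20%). Per library total without TMM the mitochondrial sum was lower in 4 of 6 mice. The differences were -13.6% to 7.90% in experiment 1 and -0.565% to 10.2% in experiment 2.

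More members were called between the experiments than between DCA and untreated cells, and so were more of all genes. In DCA libraries 26 of 37 genes differed between experiment 2 and experiment 1, 22 higher and 4 lower, and in untreated libraries 24 did, 17 higher and 7 lower. Of all genes 52.3% passed in DCA libraries, 28.1% higher and 24.1% lower, and 51.8% passed in untreated ones, 26.7% higher and 25.2% lower. The mitochondrial medians were 0.91 in DCA and 0.49 in untreated libraries, against 0.11 for all genes in both. Scaling matters here: cyclic loess moved the median of all genes by -0.14 in DCA and -0.13 in untreated libraries, against TMM. It gave 25 higher and 4 lower members in DCA and 24 higher and 4 lower in untreated libraries. With library totals the median of all genes was 0.45 in DCA and 0.53 in untreated libraries, and 30 and 29 members were higher. In untreated cells Dars, Eprs, Kars, Mars1, Farsb, Tars and Cars2 changed sign with cyclic loess. Of these, Eprs, Kars and Farsb were called lower with TMM, while with cyclic loess Eprs (0.36, adjusted p = 0.000491) and Kars (0.31, adjusted p = 0.00465) were called higher and Farsb (0.17, adjusted p = 0.188) was not called. In DCA cells Dars, Eprs, Vars2 and Wars2 did.

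Lars2, mitochondrial leucyl-tRNA synthetase, had 363, 382 and 265 CPM in the DCA libraries of experiment 2, against 101, 83.0 and 83.4 CPM in those of experiment 1. Untreated libraries had 386, 321 and 311 CPM in experiment 2 and 86.5, 70.9 and 77.5 CPM in experiment 1. The experiments did not overlap, and the log2 fold change was 1.91 ± 0.14 with DCA (adjusted p = 2.14e-08) and 2.12 ± 0.14 untreated (adjusted p = 7.29e-09). Wars, Gars, Sars2 and Farsa, whose values are given above, were higher in experiment 2 in both arms, with no overlap between the experiments within an arm. Wars differed by 1.48 with DCA (adjusted p = 3.50e-07) and 1.23 untreated (adjusted p = 2.12e-06), and Sars2 by 1.73 (adjusted p = 2.86e-07) and 1.10 (adjusted p = 2.32e-05). For Gars the difference was 0.59 with DCA (adjusted p = 1.46e-05) and 0.66 untreated (adjusted p = 4.74e-06), and for Farsa 1.42 (adjusted p = 3.86e-07) and 0.72 (adjusted p = 0.000277). Cars had 67.5, 68.5 and 68.0 CPM with DCA in experiment 2 and 26.9, 28.5 and 38.0 CPM with DCA in experiment 1. Untreated it had 73.4, 72.1 and 73.7 CPM in experiment 2 and 30.2, 40.0 and 31.7 CPM in experiment 1, again with no overlap (1.13 with DCA, adjusted p = 4.72e-06; 1.10 untreated, adjusted p = 5.43e-06).

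The genes called lower in experiment 2 in both arms were Nars, Rars, Rars2 and Yars2. Nars, whose values are given above, differed by -1.05 ± 0.08 with DCA (adjusted p = 4.09e-08) and -1.33 ± 0.08 untreated (adjusted p = 3.37e-09). Rars and Rars2, the cytosolic and mitochondrial arginine enzymes, were lower together, Rars by -0.95 with DCA and -1.07 untreated and Rars2 by -1.41 and -1.70, each with an adjusted p of 2.61e-06 or less. Yars2, mitochondrial tyrosyl-tRNA synthetase, had 21.5, 12.5 and 20.8 CPM with DCA in experiment 2 and 34.9, 34.3 and 26.8 CPM with DCA in experiment 1. Untreated it had 20.0, 18.8 and 11.2 CPM in experiment 2 and 43.4, 43.4 and 44.6 CPM in experiment 1. The experiments did not overlap in either arm, and the difference was -0.81 with DCA (adjusted p = 0.00603) and -1.40 untreated (adjusted p = 8.18e-05). All these genes kept their direction with RLE and cyclic loess scaling.

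**Figure D4:**
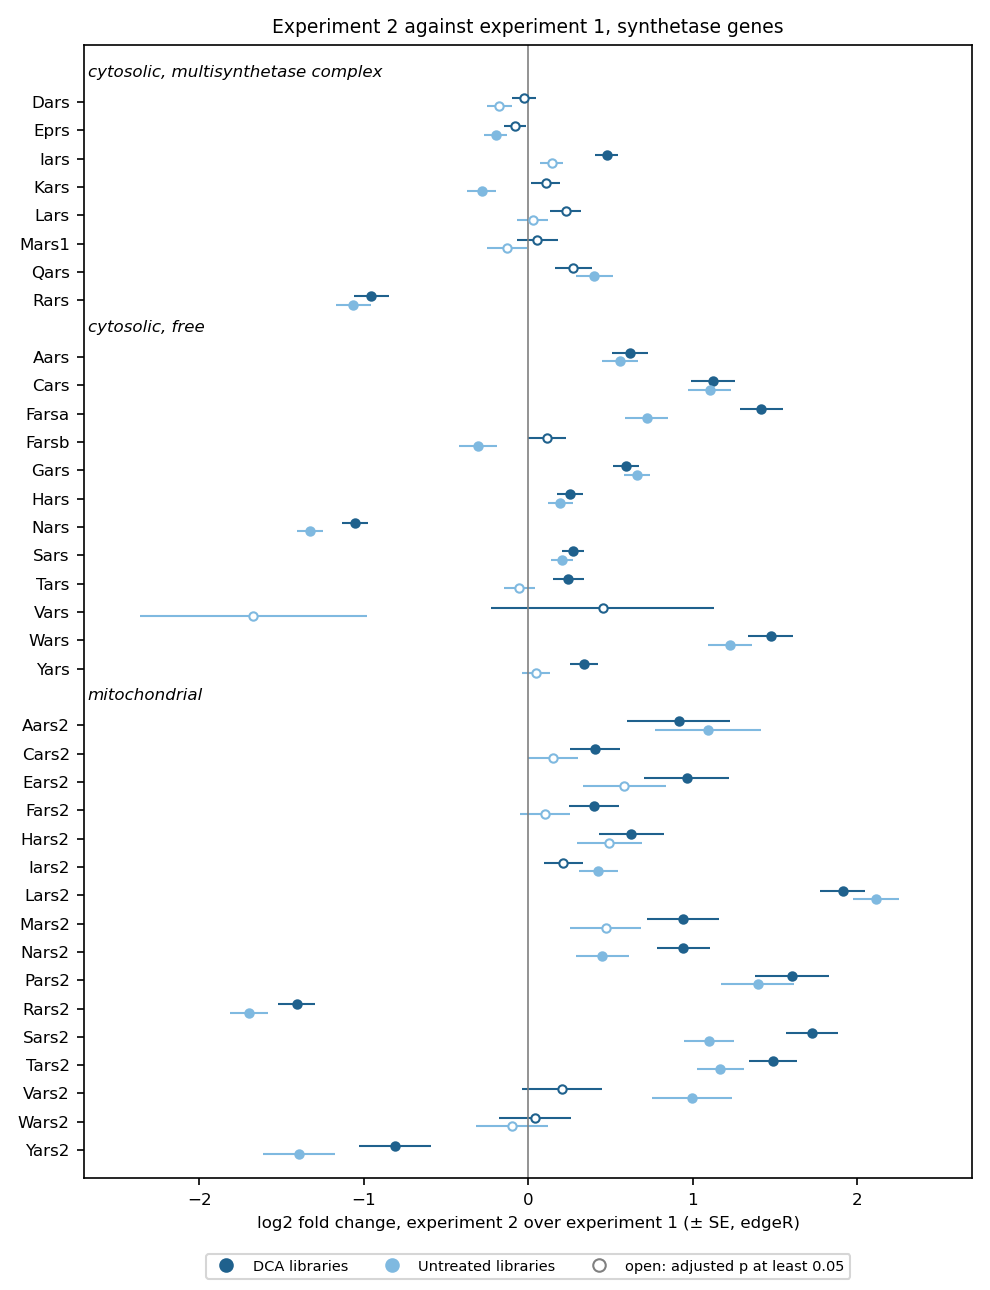
Log2 fold changes of experiment 2 over experiment 1 for 36 of the 37 synthetase genes in DCA and in untreated libraries (points, with SE from edgeR as bars); filled points passed an adjusted p of 0.05. Nars, Rars, Rars2 and Yars2 lie below 0 in both arms, and Lars2, at 1.91 with DCA and 2.12 untreated, lies farthest to the right.

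Levels of different genes were compared per kilobase of the authors' gene length, which equals the summed exon length of the annotation for 37 of 37 members. That length counts all annotated exons, not the transcripts present in these cells, and runs from 2447 bases (Hars) to 18102 bases (Eprs). The ranks here and the ratios between forms below depend on it, and the length of the expressed transcripts was not tested. Nars was highest at 191 ± 83.2 CPM per kb (mean ± SD over the 12 libraries of 4 groups), then Dars at 129 ± 10.3, Gars at 76.6, Farsb at 70.2, Rars at 69.2 and Kars at 63.3. Nars and Dars overlapped over the libraries, as did Gars, Farsb, Rars and Kars. In experiment 2 alone Dars was above Nars in both group means, at 537 CPM with DCA and 545 CPM untreated. Nars averaged 492 CPM with DCA and 519 CPM untreated there, and the gene lengths are 4358 bases for Dars and 4355 for Nars. The lowest cytosolic genes were Aars at 6.40, Cars at 7.83 and Qars at 10.3 CPM per kb, and the lowest of the family were Aars2 at 0.582 and Vars2 at 0.757 CPM per kb. Rars2 at 40.6 and Lars2 at 19.0 CPM per kb were the highest mitochondrial forms over the 12 libraries. In experiment 2 alone Lars2 was above Rars2 per kb, with means of 336 CPM with DCA and 339 CPM untreated over 11089 bases. Rars2 averaged 54.6 CPM with DCA and 58.9 CPM untreated there, over 2771 bases.

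Set against the mitochondrial form for the same amino acid, the cytosolic form had the higher level per kb in all 12 libraries for each of the 17 pairs compared here except Lars and Lars2. Nars stood 36.1 to 169 times above Nars2, and Mars1 19.4 to 56.5 times above Mars2. The closest pairs after leucine were arginine, where Rars was 1.45 to 2.56 times Rars2, and tyrosine, where Yars was 1.53 to 6.68 times Yars2. For leucine the ratio of Lars to Lars2 was 0.600 to 0.961 in experiment 2 and 1.88 to 4.07 in experiment 1, so the order of the forms turned round between the experiments in both arms. Tryptophan moved the other way, with a ratio of Wars to Wars2 of 17.8 to 48.3 in experiment 2 and 6.00 to 15.6 in experiment 1. Eprs, whose protein serves glutamate and proline, was set against Ears2 and Pars2. The family holds no mitochondrial partner of Qars, as mitochondria make glutaminyl-tRNA by way of glutamate.

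**Figure D5:**
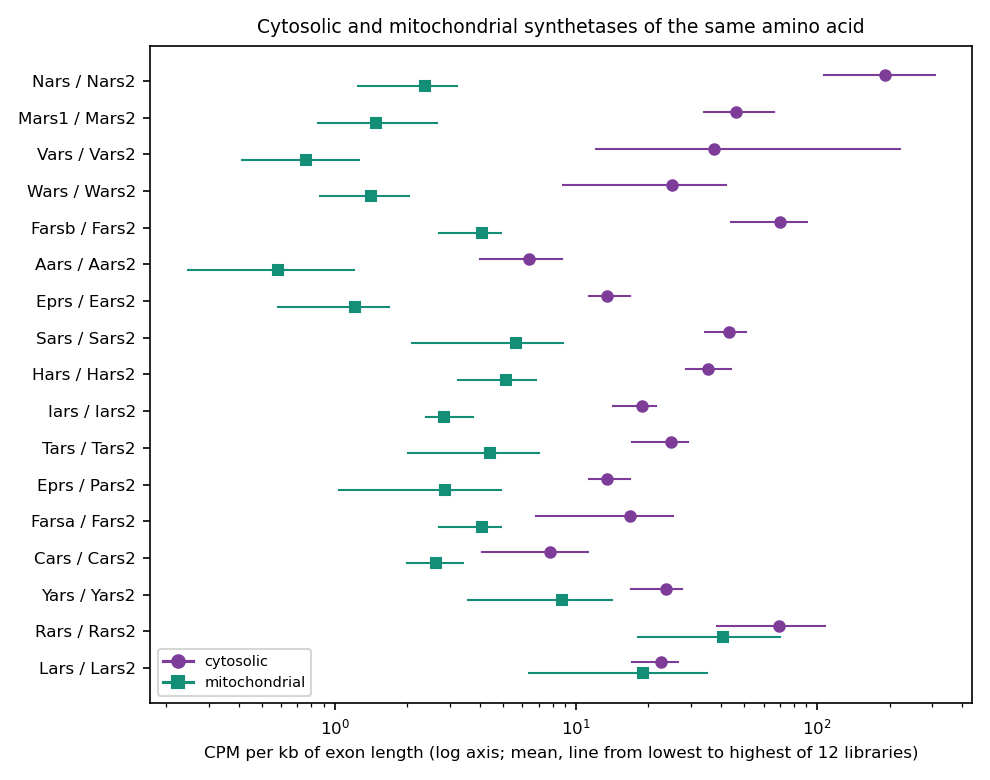
CPM per kb of exon length (log axis) of cytosolic and mitochondrial synthetases for the same amino acid, as the mean (symbol) and the range (line) of 12 libraries; pairs run from the largest median ratio at the top to the smallest at the bottom. The 2 forms lie farthest apart for asparagine and overlap in range for leucine and arginine.

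In the authors' deposited table, which compares DCA with untreated cells once, 8 of the 37 members had a false discovery rate under 0.05, where 10.5% of its 15067 genes did, 5.12% higher and 5.42% lower. In the authors' deposited table the 7 lower ones were Kars (-0.45, false discovery rate 0.00584), Farsa, Farsb, Wars, Mars1, Rars and Eprs, and the higher one was Wars2 (0.56, false discovery rate 0.0417). All 8 are among the 16 genes called above.

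Partners of the synthetases were counted by list. Of all tested genes 16.8% were called over both experiments, and lists of 3 to 5 genes are too short to be set against that share. Of the 3 scaffold genes of the complex, Aimp2 fell over both experiments (-0.35 ± 0.08, adjusted p = 0.00871). It had 74.5, 91.9 and 97.8 CPM with DCA and 122, 132 and 121 CPM untreated in experiment 1, and 64.8, 57.8 and 64.7 CPM with DCA and 71.3, 73.7 and 69.3 CPM untreated in experiment 2, with no overlap of the arms in either. Eef1e1, the third scaffold, was called within experiment 1 (-0.44 ± 0.09, adjusted p = 0.00526). Of the 4 genes that make glutaminyl- and formylmethionyl-tRNA in mitochondria, and of 5 synthetase-like and trans-editing genes, 0 were called over both experiments. Of 16 genes of tRNA maturation 1 rose and 2 fell, against 7.01% higher and 9.80% lower among all tested genes. Rtcb, the tRNA ligase, fell (-0.39 ± 0.11, adjusted p = 0.0195), as did Trmt10c of mitochondrial RNase P (-0.37 ± 0.11, adjusted p = 0.0276). Hsd17b10, a partner of Trmt10c in that enzyme, rose (0.23 ± 0.07, adjusted p = 0.049).

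Elongation factors moved in both directions. Of 6 cytosolic elongation factors 1 rose and 2 fell, on the same background of 7.01% and 9.80%. Eef1a1, which delivers aminoacyl-tRNA, had 3118, 2877 and 3187 CPM with DCA and 2636, 2487 and 2548 CPM untreated in experiment 1. In experiment 2 it had 3658, 3567 and 3511 CPM with DCA and 2675, 2733 and 2969 CPM untreated. It was higher in 6 of 6 mice with no overlap (0.31 ± 0.04, adjusted p = 0.000337). Eef1d, a subunit of its exchange factor, fell (-0.40 ± 0.06, adjusted p = 0.000904), and so did Eif5a (-0.29 ± 0.07, adjusted p = 0.00934). Of 5 mitochondrial elongation factors, again on that background, Gfm1 fell (-0.37 ± 0.11, adjusted p = 0.0374).

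Of 27 genes of amino acid sensing and the ATF4 response, 1 rose and 5 fell over both experiments, where 7.01% of all tested genes rose and 9.80% fell, and the list's median was 0.05 against -0.02 for all genes. The risen gene was Nupr1, a stress-induced target of ATF4 (0.56 ± 0.18, adjusted p = 0.0434). The genes with the smallest adjusted p among the fallen were Phgdh, the first enzyme of serine synthesis (-0.32 ± 0.07, adjusted p = 0.00565), and Eif2s1, the alpha subunit of eIF2 (-0.25 ± 0.06, adjusted p = 0.00702). Atf4 itself had 117, 103 and 118 CPM with DCA and 99.8, 109 and 99.8 CPM untreated in experiment 1, and 95.2, 86.0 and 90.5 CPM with DCA and 81.2, 83.1 and 85.5 CPM untreated in experiment 2. Its arms overlapped in experiment 1 and were apart in experiment 2, with DCA higher (0.13 ± 0.06, adjusted p = 0.152). Eif2ak4, the gene of GCN2, was higher in 6 of 6 mice and did not pass (0.39 ± 0.14, adjusted p = 0.0685).

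Reads of some members may be shared with other genes, as the strand setting of the counting is not given in the sources used here. By exon overlap in the GRCm38 annotation, Iars2 shares 24.2% of its exon bases with other genes (mainly Rab3gap2, opposite strand), Aars 15.1% (Exosc6, same strand) and Fars2 10.7%. Iars shares 7.15% of its 50-base stretches with Gm4849. Values of these members are uncertain to that extent.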

How the data were processed

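Bulk RNA of 12 libraries (6 mice, 2 arms each) was analysed from whole-number read counts per gene deposited by the authors, without normalization, for 56748 genes. The SmartSeq cDNA went through 15 amplification cycles, per the labels' protocols, and no molecular identifiers are mentioned, so counts are not taken as independent molecules. fastp 0.23.2, STAR 2.7.10a, edgeR 3.36.0 and build GRCm39 are named in the submitters' processing notes; the read counter, its strand option and the gene models were not named there. A table of the authors' edgeR comparison, treated over untreated, holds log2 fold changes, log2 CPM, p-values and adjusted p-values (false discovery rate), as its deposited header names them. Gene length is in that table too, deposited by the authors (unit: bases, used as a per-kb score of level). No value column stayed unmapped (0).

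The main test was the quasi-likelihood test of edgeR 4.0.16 (R 4.3.3) after TMM scaling and filterByExpr by the 4 groups, with Benjamini-Hochberg adjustment over 15688 genes and a threshold of 0.05. DCA over both experiments was fitted with a term for experiment; the other contrasts came from 1 fit of 4 group means. SE is the absolute log2 fold change over the square root of F. Adjusted p-values are from this test unless another tool is named. The same mouse gave both arms: deviations from the group means correlated at 0.0443 to 0.0834 within a mouse and -0.0689 to -0.00438 between mice. Between replicates the chi-square per degree of freedom was 11.1 to 31.4, so none was counted as a duplicate.

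The members, the partner lists and the markers were chosen with earlier results of these data known. Values of every library were given, by rule, for the 12 members with the smallest adjusted p over both experiments, and for up to 4 members a direction between experiments; Lars, Iars, Nars, Vars, Wars2, Sars2 and Rars2 were added after their values were seen. Up to 2 genes a direction were named from each partner list by adjusted p; Eef1e1, Atf4 and Eif2ak4 were added after their values were seen. Alternatives were RLE, cyclic loess with limma 3.58.1, limma-voom, DESeq2 1.42.0, no filter, 5 CPM in 3 libraries, a term per mouse (replicate block), the 6 libraries compared, each library left out, and, added after seeing the data, library totals. Promoter windows are RefSeq's on GRCm38.p6; other coordinates were not used. The single values of 1 member and 1 marker gene are not reported here.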

Additional observations from a re-analysis of the deposited data

How the results depend on the processing

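No called DCA effect changed sign under the alternatives run. Between experiments in untreated cells, Eprs, Kars and Farsb were called lower with TMM and lay at 0.36, 0.31 and 0.17 (log2) with cyclic loess. Over both experiments the 16 calls were 15 to 18 with RLE, limma-voom, DESeq2, no filter and 5 CPM in 3 libraries. The block by mouse (pairing from the design) left 12 over both experiments, 15 in experiment 1, 0 in experiment 2 and 0 for the difference; it ended the calls of Lars, Nars, Sars2 and Wars2 over both, of Hars and Vars in experiment 1 and of Gars in experiment 2, and no other. No block could be used between experiments, since each mouse belongs to 1 of them. Cyclic loess left 5 calls over both experiments, 7 in experiment 1 and 0 in experiment 2, and library totals left 9, 8 and 0. In experiment 1 the 6 libraries alone gave 6 calls. In experiment 2 the count was 2 with RLE, 5 with DESeq2, 2 with 5 CPM in 3 libraries and 5 with the 6 libraries alone. For the difference DESeq2 gave 1 call and no filter 2. Leaving out 1 library gave 12 to 17 calls over both experiments, 12 to 17 in experiment 1, 0 to 2 in experiment 2, 0 to 1 for the difference, 21 to 27 between experiments with DCA and 20 to 25 untreated. The cause of these changes was not tested. Calls among all genes under the alternatives are not given here, so these counts show no change particular to the members. DESeq2 gave no adjusted p for Vars. The SE over both experiments had a median of 0.13 for the mitochondrial and 0.08 for the cytosolic forms.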
